A study of Drosophila melanogaster with 2 samples.

Results

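The retinal determination network genes ey, toy, so, eya, dac, Optix, hth, tsh, tio and gl were examined for regions recovered with the transcription factor toe (twin of eyegone). They were taken by name, as known genes of the network and with earlier results of these data known, and all 10 matched a gene among the 13968 protein-coding genes of the annotated main chromosomes. Chromatin came from whole adult Drosophila melanogaster males of a transgenic line that stably carries toe with a green fluorescent protein at its C-terminus, and an antibody against that tag was used for immunoprecipitation. The age of the flies is given as unknown, and the single group had 2 biological replicates, numbered 2 and 3, with no other genotype or treatment. What drives the transgene is not given in the labels. The control experiment named for it is not analysed here. Peak lists from whole animals do not tell which cells were bound, and few cells bound strongly cannot be told apart from many cells bound weakly.

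The network sets aside the eye field and drives it toward retina. ey and toy encode Pax6 proteins that stand high in it, so and Optix encode related homeodomain proteins, and eya encodes a phosphatase that acts as the coactivator of So. dac encodes a nuclear protein of the Ski/Sno kind that acts with Eya. hth encodes a homeodomain partner of Exd, and tsh and tio encode paralogous zinc-finger proteins; together these mark undifferentiated eye tissue. gl encodes a zinc-finger protein needed for photoreceptors to form. toe and its neighbour eyg encode Pax-like proteins that act beside the network, mainly in eye growth. Most of this is known from larval eye discs, whereas the flies here were adult.

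The list that the authors thresholded for reproducibility, called the reproducible list here, held 3469 regions on dm6. Its signals ran from 58.2 to 3278, with a median of 102. The signal is the authors' own value for each region, on a scale that is not given, so it and its rank are compared only within a list. Read depth is unknown. Lists of 30000 regions each, peaks and background together, were given for replicate 2, for replicate 3 and for both pooled. The reproducible list equals the 3469 strongest regions of the pooled list. Of its regions, 22 overlapped no region of replicate 2 and 52 overlapped none of replicate 3. The word reproducible therefore names this list and not agreement of the replicates at each region. Ranks count from 1 for the highest signal, and distances run from the summit to the nearest annotated start site of the gene.

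Of the 10 genes, 3 (30.0%) carried a reproducible summit no farther than 500 bp from an annotated start site, called a promoter region here, namely ey, so and dac, against 19.3% of all protein-coding genes. A reproducible summit lay inside the gene for 2 of 10 members, ey and tio, against 9.63% of all protein-coding genes. Within 10 kb of the gene or inside it, 7 of 10 (70.0%) had a reproducible summit, against 55.2%, and eya, Optix and tsh had none. In all, 10 reproducible regions lay at these genes, 3 at dac, 2 at ey and 1 each at toy, so, hth, tio and gl. The members are long genes, with a median length of 16860.5 bp against 2164.5 bp for all protein-coding genes. Among the 3591 protein-coding genes at least as long as gl, the shortest member (4812 bp), the shares were 27.4% at promoters, 25.1% inside the gene and 64.9% within 10 kb. With genes of that length as the measure, the 3, 2 and 7 of 10 members lay close to the shares of other genes.

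**Figure D1:**
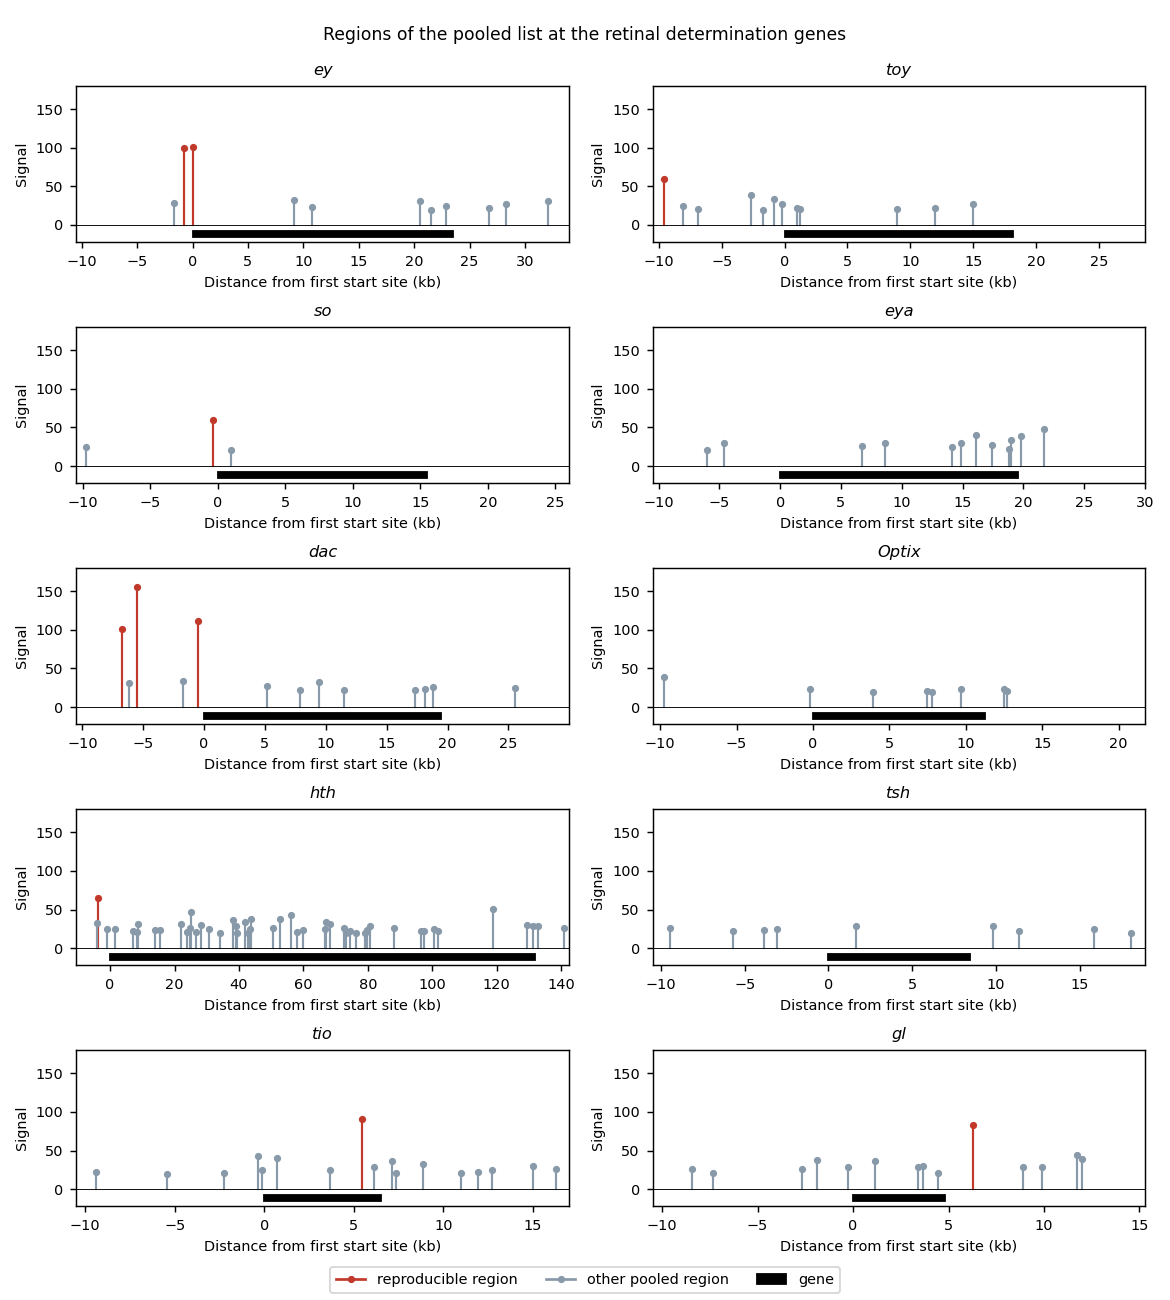
Signal of each pooled region (vertical axis, the authors' signal) against its distance in kb from the first start site in the direction of transcription (horizontal axis), for each gene with 10 kb on either side; black bars are the genes, and red marks the reproducible regions. The dac and ey regions cluster before and at the start site, tio and gl have theirs at or past the 3′ end, and eya, Optix and tsh have none in red.

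ey carried 2 reproducible regions, at its start site and just before it. ey (FBgn0005558) lies on the plus strand at chr4:697689-721173. Its promoter region, chr4:697505-697924, had a signal of 101, a rank of 1777 and a q-value of 0.000844, with the summit 26 bp inside the 5′ UTR. In the replicates' own lists this region had signals of 52.0 in replicate 2 (rank 2258) and 49.2 in replicate 3 (rank 1680), and both summits fell on the same base as in the pooled list. A further region at chr4:696740-697159 had its summit 739 bp upstream, a signal of 99.8 and a rank of 1798. It had 58.3 in replicate 2 (rank 1955) and 38.9 in replicate 3 (rank 2351). Both ey regions thus ranked within the 3469 strongest of each replicate, though the upstream one was the stronger in replicate 2 and the one at the start site in replicate 3. No start site of another gene lay within 500 bp of either summit.

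The sequence of the ey regions is shown because the upstream one holds several copies of the letters CGATA; it was chosen for display after its values were seen. Letters come from the RefSeq copy of the dm6 assembly, 100 bases either side of the summit, 5′ to 3′ on the strand of ey and without exon sequence, so that the region at the start site is cut to the part before the start. Capitals mark any of 9 short motifs searched on both strands, and overlapping matches each count. The motifs were TATCGATA (the DNA replication-related element) with its core CGATA, then GAGAG (the core of GAGA repeats), ACAGTGG plus AGTGTTG, the E-box CAGCTG, the homeodomain core TAATTA, the paired domain core GTCACGC and the promoter motif GGTCACACT.
ey upstream region, chr4:696850-697050: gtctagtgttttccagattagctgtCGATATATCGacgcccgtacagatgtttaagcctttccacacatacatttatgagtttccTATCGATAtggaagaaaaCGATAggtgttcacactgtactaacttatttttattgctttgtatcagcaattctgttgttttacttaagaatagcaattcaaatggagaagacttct
ey start region, chr4:697615-697688: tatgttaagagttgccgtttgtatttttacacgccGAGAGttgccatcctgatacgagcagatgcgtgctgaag

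The upstream ey window held 5 matches to CGATA, of which 2 lie in a single TATCGATA. Of all 3469 reproducible summit windows of this length, 5.04% held the longer element and 35.3% its core. Among windows away from start sites, the class of the upstream ey region, these shares were 0.763% and 24.7%, and among promoter windows 7.25% and 40.8%. The promoter motif GGTCACACT, held by 2.02% of all 3469 windows, was in no member window searched. The whole window at the start site, UTR included, held 1 match to CGATA and 1 to GAGAG, which occurred in 24.0% of all windows. Neither ey window held GTCACGC, found in 0.663% of all windows, or TAATTA, found in 17.0%. None of the 9 member windows searched, which leave out so, held that paired domain core. The E-box, which 10.8% of all windows held, was absent from them as well. So was AGTGTTG, which 7.99% of all windows held.

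toy, the Pax6 paralog of ey on the same chromosome, had no reproducible region at its promoter. toy (FBgn0019650) lies at chr4:989725-1007922 on the plus strand, with a single annotated start site. Its only reproducible region, chr4:979892-980311, had its summit 9623 bp upstream of toy and 1613 bp from a start site of fuss, a neighbouring gene. The signal was 59.4, the rank 3386 and the q-value 0.0961, so it stood near the end of the list. In replicate 3 it had a signal of 40.6 and a rank of 2228, whereas the overlapping region of replicate 2 had 15.4 and a rank of 14972. The promoter of toy showed the opposite. A region 163 bp from the start site had a signal of 28.9 in replicate 2 (rank 4540, q-value 0.194), the pooled list had it at 27.1 (rank 13481), and replicate 3 listed none within 500 bp. The 2 replicates therefore placed their highest toy region at different sites.

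Chromosome 4 as a whole held 16 reproducible regions, 3 of them within 10 kb of ey or toy. The start region of ey was 6th and the toy region 15th of these by signal. Of the 80 protein-coding genes on chromosome 4, 11 (13.8%) had a reproducible promoter summit.

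dac had the highest signal of the 10 genes and the most reproducible regions, 3, that all lay before its start site. dac (FBgn0005677) is on the minus strand of chromosome 2L, at chr2L:16466512-16485998. The region at chr2L:16486284-16486703 lay just inside the 500 bp window, its summit 496 bp before dac, with a signal of 112 and a rank of 1546. It had 71.4 in replicate 2 (rank 1501, summit 482 bp away) and 43.5 in replicate 3 (rank 2006, summit 369 bp away). A weaker region of replicate 3 overlapped it too, with 19.9 (rank 7375) at a summit 575 bp away. The highest region, chr2L:16491299-16491718, had a signal of 156 and a rank of 1025, with 86.1 in replicate 2 (rank 1176) and 60.9 in replicate 3 (rank 1232). Its summit, 5511 bp upstream of dac, lay 31 bp from a start site of Tpr2, a divergently transcribed gene that encodes a tetratricopeptide repeat protein. A start site of Nepl8 lies between those of dac and Tpr2. The third, chr2L:16492527-16492946, had a signal of 101 and a rank of 1757, with 62.2 in replicate 2 (rank 1800) and 43.7 in replicate 3 (rank 1991). That summit, 6739 bp upstream of dac, lay inside Tpr2, so that 2 of the 3 regions assigned to dac by distance were at or in Tpr2. Inside dac itself the pooled list held 7 summits, none with a signal above 32.9 (rank 8315).

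The dac windows are shown to set its own promoter region beside the regions at Tpr2, on the strand of dac. Those at Tpr2 were chosen for display after their values were seen, and the first of them is cut where the Tpr2 transcript begins.
dac promoter region, chr2L:16486394-16486594: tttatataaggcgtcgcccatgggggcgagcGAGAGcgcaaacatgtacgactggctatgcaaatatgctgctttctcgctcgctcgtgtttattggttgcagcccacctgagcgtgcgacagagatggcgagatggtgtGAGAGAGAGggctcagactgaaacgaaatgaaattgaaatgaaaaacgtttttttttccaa
dac region at the Tpr2 start, chr2L:16491409-16491539: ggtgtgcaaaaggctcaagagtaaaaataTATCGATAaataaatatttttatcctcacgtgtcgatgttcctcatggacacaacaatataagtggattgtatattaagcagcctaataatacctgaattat
dac region inside Tpr2, chr2L:16492637-16492837: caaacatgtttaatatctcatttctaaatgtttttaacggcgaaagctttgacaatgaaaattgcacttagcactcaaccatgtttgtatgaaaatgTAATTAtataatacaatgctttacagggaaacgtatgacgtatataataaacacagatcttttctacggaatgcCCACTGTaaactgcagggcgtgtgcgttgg

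The letters of the 3 windows differed. The dac promoter window held 4 matches to GAGAG and none to the other 8 motifs. The window at the Tpr2 start held 1 TATCGATA, and the 2 matches to CGATA there lie within it. Inside Tpr2 the window held 1 match to ACAGTGG, on the opposite strand, and 1 to TAATTA. The letters ACAGTGG occurred in 7.38% of all reproducible windows, in 5.90% of those at promoters and in 10.3% of the rest.

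so, whose protein is a partner of Eya, had the weakest of the promoter regions. so (FBgn0003460) lies at chr2R:7419350-7434872 on the plus strand. Its region at chr2R:7418785-7419204 had its summit 355 bp upstream, a signal of 59.2, a rank of 3397 and a q-value of 0.0970. In replicate 2 it had 35.9 (rank 3517, q-value 0.0587). In replicate 3 the region was split, with 19.4 at a summit 565 bp away (rank 7899) and 17.1 at one 354 bp away (rank 10808). Neither replicate had it among its 3469 strongest. Of the 2289 reproducible promoter regions, 2250 (98.3%) had a higher signal than this one.

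Optix, a relative of so, and eya, which encodes the coactivator of So, had no reproducible region within 10 kb. Optix (FBgn0025360, chr2R:8031283-8042529, plus strand) had its highest pooled region 9782 bp from a start site, with a signal of 39.6 and a rank of 5802. At the 3 annotated start sites of Optix the pooled list held 2 regions, 212 bp and 11 bp away, with signals of 24.0 (rank 18491) and 23.3 (rank 19928). Replicate 2 had 17.7 (rank 10663) 288 bp before the first start site of Optix, and replicate 3 had 12.0 (rank 25575) in the 5′ UTR, 328 bp from another start site. Optix regions were also the least shared: 1 of the 7 regions of replicate 2 there overlapped a region of replicate 3.

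eya (FBgn0000320, chr2L:6527447-6546976, minus strand) has 3 annotated start sites. Its highest pooled region lay 2180 bp past the 3′ end of the gene and inside CG31637, with a signal of 48.3, a rank of 4378 and a q-value of 0.242. It had 31.0 in replicate 2 (rank 4163) and 16.1 in replicate 3 (rank 12657). At an internal start site of eya the pooled list held a region 407 bp away with 39.7 (rank 5777), which had 20.5 in replicate 2 (rank 7738) and 16.9 in replicate 3 (rank 11233). The nearest reproducible summits lay 10535 bp from a start site of eya and 16872 bp from Optix.

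hth is by far the longest of the 10 genes and had no reproducible region in its body. hth (FBgn0001235) spans 132008 bp on the minus strand, at chr3R:10507561-10639568. Its only reproducible region, chr3R:10643135-10643554, lay 3777 bp upstream of the first start site and inside the antisense gene asRNA:CR44018. It had a signal of 64.4, a rank of 3083 and a q-value of 0.0573. The region was high in replicate 3 (42.9, rank 2039, with a weaker overlapping region of 17.9, rank 9599) and low in replicate 2 (19.4, rank 8666). At the internal start site of hth the replicates differed the other way. The highest region there had 37.7 in replicate 2 (193 bp away, rank 3318, q-value 0.0405), 24.7 in replicate 3 (473 bp away, rank 4736, q-value 0.382) and 47.2 in the pooled list (124 bp away, rank 4510). Of the 44 pooled summits inside hth, the highest was intronic, with 50.4 (rank 4118). A gene of this length without a reproducible summit was common: of the 44 protein-coding genes at least as long as hth, hth included, 30 (68.2%) had none.

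tsh and tio, neighbours on chromosome 2L, differed in what they carried. tio (FBgn0028979, chr2L:22019208-22025734, plus strand) had a reproducible region at chr2L:22024433-22024852 with a signal of 91.5, a rank of 2012 and a q-value of 0.00323. Its summit lay in the 3′ UTR of tio, 5321 bp from the nearest start site, with no start site of another gene within 500 bp. It had 42.3 in replicate 2 (rank 2916) and 49.7 in replicate 3 (rank 1653), so it was among the 3469 strongest of each. The window around it held 54.2% G and C, with 5 matches to GAGAG and 1 to ACAGTGG. Its sequence is not shown because it is UTR. The median over all reproducible windows was 36.8% G and C, and the other member windows searched had 34.8% to 48.3%. GAGAG was in 4 of the 9 member windows searched, against 24.0% of all windows, and TATCGATA in 2, against 5.04%. The hth window held 2 matches to GAGAG and none to the other motifs. The gl and toy windows held no motif match. At the promoter of tio the highest pooled region had 42.5 (rank 5194), 332 bp away and also near lncRNA:CR33987.

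tsh (FBgn0003866, chr2L:21828593-21837011, plus strand) had the lowest pooled value of the 10 genes. Its highest pooled region within 10 kb had a signal of 28.7 and a rank of 11687. The pooled list and replicate 3 held no region within 500 bp of its start site, and replicate 2 held 1, with 25.4 (rank 5378, q-value 0.326). The nearest reproducible summit lay 33649 bp away.

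gl had a reproducible region nearby that lay at the start sites of other genes. gl (FBgn0004618, chr3R:18367927-18372738, minus strand) had it at chr3R:18366260-18366679, 1457 bp past its 3′ end and 6268 bp from its start site. Start sites of both Nup43, a nuclear pore gene, and WRNexo, an exonuclease gene, lay within 500 bp of the summit. The signal was 83.1 and the rank 2244, with 51.9 in replicate 2 (rank 2268) and 32.6 in replicate 3 (rank 2994). At the promoter of gl the pooled list had 28.4 (rank 12070), replicate 2 had 13.0 (rank 22685) and replicate 3 had none. That pooled summit lay inside lncRNA:CR14310, 69 bp from its start site and 259 bp from that of gl.

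**Figure D2:**
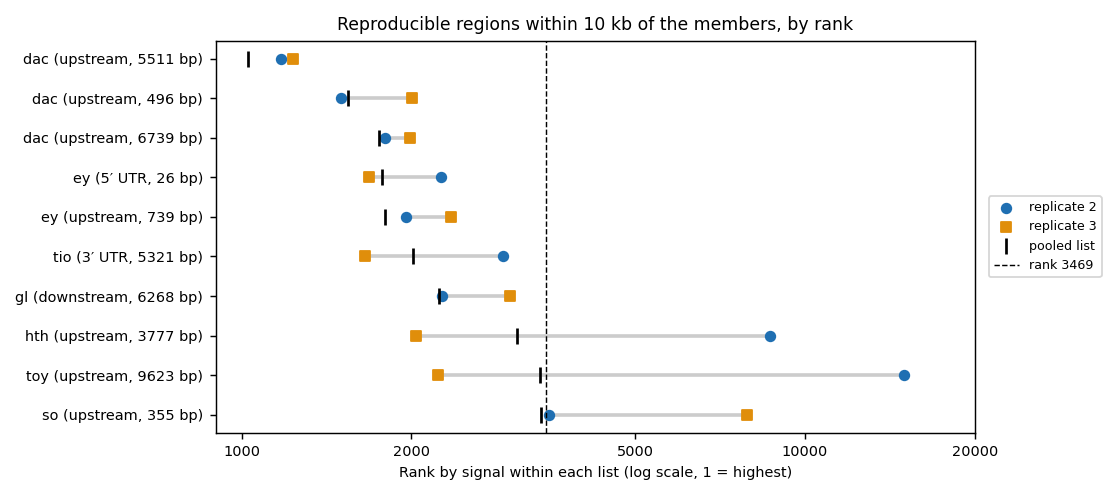
Rank by signal on a log axis for the 10 reproducible regions within 10 kb of the members, in replicate 2 (circles), replicate 3 (squares) and the pooled list (ticks); each row names the gene, where the summit lies and its distance from the nearest start site of that gene. The dac, ey, tio and gl regions lie left of the dashed line at rank 3469 in both replicates, hth and toy only in replicate 3, and so in neither.

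Among the 10 regions, 7 were within the 3469 strongest of both replicates, 2 (hth and toy) of replicate 3 only, 0 of replicate 2 only and 1 (so) of neither. Over the whole reproducible list these shares were 70.3%, 10.8%, 14.9% and 3.95%. The same 7 regions had a q-value under 0.05, and those of hth, so and toy did not. Over the whole reproducible list, 3011 of the 3469 regions had a q-value under 0.05. By the strongest regions of each replicate alone, the genes called changed. At promoters, the 3469 strongest of replicate 2 gave ey, dac and hth (3 of 10, against 21.1% of all protein-coding genes), and those of replicate 3 gave ey and dac (2 of 10, against 19.7%). Inside the gene they gave ey, hth and tio in replicate 2 (3 of 10, against 9.61%) and ey and tio in replicate 3 (2 of 10, against 10%). Within 10 kb they gave 5 of 10 in replicate 2 (against 58.2%) and 6 of 10 in replicate 3 (against 56.4%). The promoter calls of ey and dac and the call of tio inside the gene thus held in each replicate, as did those of ey, dac, hth, tio and gl within 10 kb. The hth call within 10 kb rested on its internal start site in replicate 2 and on the upstream region in replicate 3. toy was called within 10 kb in replicate 3 only, and so by none of the rules in either.

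**Figure D3:**
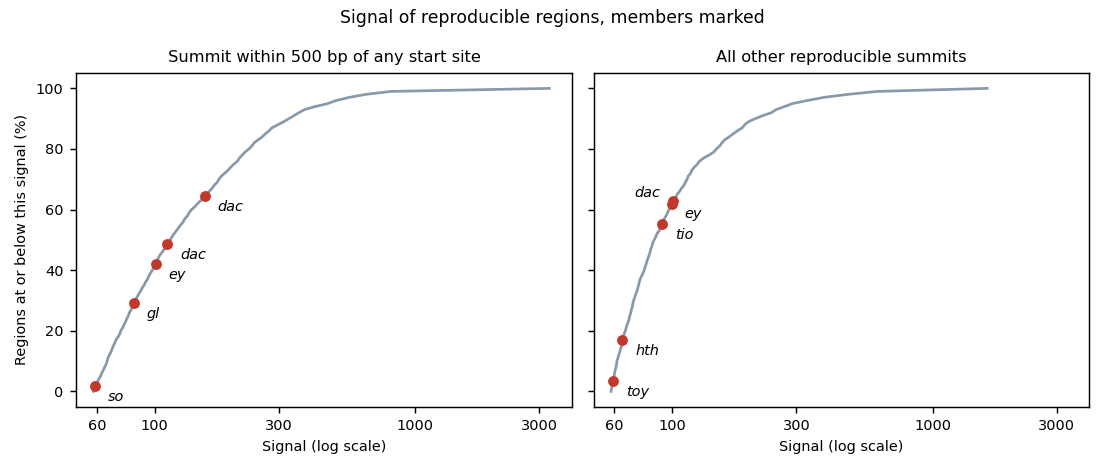
Cumulative share of reproducible regions (vertical axis, %) by signal (horizontal log axis), for summits within 500 bp of any start site (left) and all others (right), with the regions of the members as red points. so and toy sit at the low end, and the region of dac at Tpr2 is the highest of the points, with 35.6% of promoter regions above it.

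The members' regions were of middling to low signal for their class. Reproducible regions at the start site of any gene had a median signal of 115. The dac region at the Tpr2 start (156) exceeded it, and the promoter regions of dac (112), ey (101) and so (59.2) and the gl region at the Nup43 and WRNexo starts (83.1) did not. Reproducible regions away from start sites had a median of 85.3, exceeded by dac (101), ey (99.8) and tio (91.5) and not by hth (64.4) or toy (59.4). The strongest pooled region in or within 10 kb of each member had a median rank of 3234.5 over the 10 genes, from 1025 for dac to 11687 for tsh. Over the 12850 protein-coding genes with such a region it was 2279. In replicate 2 the medians were 3417.5 for the members and 2200 for all, and in replicate 3 they were 2611 and 2307.5.

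Weaker regions were listed at nearly every member. The pooled list put a promoter region at 9 of 10, against 41.9% of all protein-coding genes and 57.3% of those at least as long as gl. In replicate 2 all 10 had one, against 45.1% of all and 61.1% of the long genes. In replicate 3 there were 7 of 10, without toy, tsh and gl, against 44.2% of all and 59.6% of the long genes, which is near the members' share. Every member had a summit inside the gene in the pooled list (against 36.2%), in replicate 2 (37.8%) and in replicate 3 (39.4%). The same held within 10 kb, where the shares of all protein-coding genes were 92.0%, 95.0% and 94.6%. Among genes at least as long as gl, 75.5% had a summit inside in the pooled list, 77.8% in replicate 2 and 79.6% in replicate 3. Outside ey, so and dac, the promoter regions in the pooled list had ranks of 4510 or beyond, and tsh had none there. Those ranks lie below the 3469 regions of the reproducible list, in a list that holds peaks and background together.

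**Figure D4:**
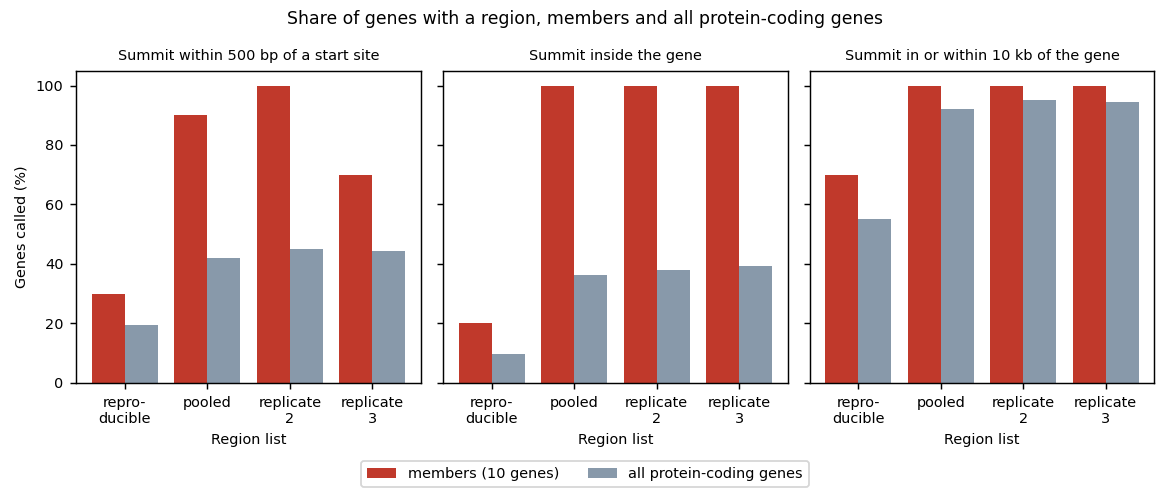
Percentage of genes with a summit by each of 3 position rules (panels) and in each of the 4 region lists (horizontal axis), for the 10 members (left bars) and all 13968 protein-coding genes (right bars). In the reproducible list 3, 2 and 7 of the 10 members are called, against 19.3%, 9.63% and 55.2%. Among genes at least as long as gl, not drawn here, the shares are 27.4%, 25.1% and 64.9%.

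Among other genes of eye development, eyg, toe and nmo of 7 eye field genes had a reproducible promoter region, against 19.3% of all protein-coding genes. The eyg region had a signal of 224 and a rank of 582, above every region of the 10 members, and that of toe had 92.0 (rank 1998). Whether the tagged transgene adds copies of toe is not given. nmo, a kinase gene, had 111 (rank 1574), in a region also near Pop4. dan, danr, Hipk and Lim1 had none at the promoter. Of 4 partners and paralogs, yki, which encodes the Hippo pathway coactivator that acts with Hth and Tsh, had a promoter region of 305 (rank 321), also near Gpat4. exd, sd and Six4 had none at the promoter, though sd and Six4 each had 3 reproducible regions within 10 kb. Of 13 genes of retinal neuron and photoreceptor differentiation, only ro was called, with 2 promoter regions, the stronger of which had 65.5 (rank 3022) and lay near T48 too. ato, sens, lz, B-H1, B-H2, salm, salr, Pph13, oc, sv, chp and ninaE were not, the summit nearest to salm lying 515 bp from its start site. Regions within 10 kb were more common than promoter regions in each list. Such a reproducible region lay at 5 of the 7 eye field genes and 3 of the 4 partners and paralogs. The differentiation genes had one at 4 of 13, and the share of all protein-coding genes was 55.2%.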

How the data were processed

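Chromatin immunoprecipitation followed by sequencing gave 8 deposited region lists, of which the 4 on dm6 were used. Notes deposited with the samples say that calling was done for either replicate alone and for the pooled reads, each time with the file that also served for control-normalized signal, and that the irreproducible discovery rate gave the reproducible list; no source used here names the aligner or caller. The authors' signal (column 7) has no stated scale. By the usual layout of such files, a further deposited column was taken as −log10 q-value, and another as the summit offset. Coordinates are 1-based dm6; gene models were those of Ensembl release 115 for BDGP 6.54, transposable elements left out, and no region passed a chromosome's end in the RefSeq copy of that assembly. Promoter calls needed a summit within 500 bp of any start site. Overlaps needed 1 bp. All 3469 reproducible regions were the strongest of the pooled list. Each replicate region named beside a reproducible one is the strongest that overlaps it.

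The members, motifs and gene lists were chosen with earlier results of these data known, so counts stand beside the share of all genes and no set was tested. A single group leaves no conditions to compare. Named were all 10 members and, of other lists, each gene with a promoter region. The share of genes at least as long as gl or hth was added after the values were seen. The position rule was tested on planted summits. Depth is unknown. The 4 dm3 lists were not used. Python 3.11.15, numpy 2.4.6 and pandas 2.3.3 were used.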

Additional observations from a re-analysis of the deposited data

How the results depend on the processing

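No paired analysis was possible because there is a single group. With a 200 bp window, promoter calls fell to 1 member (ey; 14.4% of all protein-coding genes), since the summits of so and dac lie farther out, and to 3 other eye genes (eyg, toe, nmo) of 5. Among the reproducible regions of above-median signal 1 member was called at promoters (dac; 12.7% of all genes), 0 inside the gene (5.15%), 1 within 10 kb (dac; 39.7%) and 3 other eye genes (eyg, nmo, yki). With a q-value under 0.05, 4 members were called within 10 kb (ey, dac, tio, gl; 52.0% of all genes). Leaving out a replicate (the 3469 strongest regions of the other) gave 2 to 3 members at promoters (so lost without either, hth gained without replicate 3), 2 to 3 inside the gene, 5 to 6 within 10 kb and 4 to 5 other eye genes, and median best ranks of 2611 (without replicate 2) to 3417.5 (without replicate 3), against 3234.5. The remaining alternatives, among them a 1000 bp window, any overlap, a single start site per gene and flanks of 5 kb or 20 kb, moved no count by more than 1.5 times. At 20 kb eya and Optix were added (9 members, 71.0% of all genes), and at 5 kb toy was lost (6 members, 42.1%). Without hth the density of reproducible regions was 2.93 per 100 kb, not 2.18, and lay above the 2.52 of the main chromosomes. With no read counts, a region missing from a list is not shown to be unbound.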

Other observations

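In the lists of 30000 regions, summits were denser around the members together than over the main chromosomes. Density around other long genes was not measured, so the difference is not shown to be particular to the members. Genes with 10 kb flanks (459236 bp in all) held 32.2 summits per 100 kb in the pooled list, 34.8 in replicate 2 and 27.0 in replicate 3, against 21.8 over all main chromosomes, Y included, in each list. In the reproducible list there were 2.18 per 100 kb at the members and 2.52 over the main chromosomes, and hth decides on which side the members lie: without hth, left out after the data were seen, they had 2.93. By gene, 6 of the 10 lay above that value of 2.52, up to 7.60 at dac, and hth had 0.658. Pooled densities ran from 8.45 per 100 kb at so to 64.1 at tio. Of the replicate 2 regions at the members, 60 of 160 (37.5%) overlapped a replicate 3 region, against 45.8% over the whole list. Of the replicate 3 regions, 63 of 124 (50.8%) overlapped one of replicate 2, against 45.7%. hth weighs heavily in both counts. It held 51 of the 160 replicate 2 regions, 14 of them shared (27.5%), and 41 of the 124 replicate 3 regions, 17 of them shared (41.5%).

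The 182196 bp between tsh and tio held 0 reproducible summits and 73 pooled ones (40.1 per 100 kb). Read mapping across it was not tested.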
